A study of Mus musculus with 18 samples.

Results

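A set of 10 genes of conventional dendritic cells was followed: 8 genes that mark or maintain the type 1 subset (Xcr1, Clec9a, Batf3, Irf8, Flt3, Zbtb46, Wdfy4 and Itgae, called identity genes here) and 2 genes of mature, migrating cells (Ccr7 and Ccl22, called migration genes). They were chosen by name, and all 10 were found among the 50600 gene identifiers of the count table. RNA came from whole B16F10 melanomas grown under the skin of female C57BL/6 mice, which by the study's methods were 5 to 6 weeks old when purchased. The tumors were injected intratumorally and taken 24 h after the last dose, and each of 9 groups held 2 tumors.

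After 1 dose the groups were PBS, unloaded extracellular vesicles (unloaded EVs, made by human HEK293 cells), exoCDN2 (0.1 µg of the cyclic dinucleotide STING agonist CDN2 loaded into EVs, labelled exoCL656), free CDN2 at 20 µg and free CDN2 at 100 µg (labelled CL656). After 2 doses given 3 days apart they were PBS, exoCDN2 (0.1 µg), free CDN2 at 20 µg and a free CDN2 pair whose labels give no amount. Every mouse carried the same tumor line and had no engineered allele in the labels, the tumors were not sorted, and exoCDN2 was compared with free CDN2 at unequal amounts.

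Type 1 conventional dendritic cells take up material from dying tumor cells and present it to CD8+ T cells. Their development depends on the transcription factors BATF3 and IRF8 and on the cytokine FLT3L, and they carry the chemokine receptor XCR1, which binds XCL1, and CLEC9A, which binds exposed actin filaments of dead cells. On maturation a dendritic cell gains CCR7, the receptor that directs it towards CCL19 and CCL21 in lymphatics and lymph nodes, and it can secrete CCL22, which attracts CCR4-bearing cells such as regulatory T cells. Several of these genes are shared with other cells: Irf8 with macrophages and B cells, Ccr7 with naive T and B cells, Itgae with tissue T cells, Zbtb46 with endothelium and Ccl22 with macrophages.

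RefSeq promoter windows (GRCm38.p6, 250 bases before to 50 after each start) were given for 8 of the 10 genes, all but Itgae and Ccr7. The stretches before the start of Irf8 and Ccl22 are printed because they were the identity gene and a migration gene called in several comparisons (5 and 6 of 15), and that of Xcr1 because it names the subset. Bases in capitals match the letters TTCNNNGAA, the GAS element bound by STAT dimers, on either strand, the other motifs searched having no match in these stretches. Irf8 is shown from chr8:120736108-120736357 on the plus strand, Ccl22 from chr8:94745434-94745589 on the plus strand, cut off where the annotated gene begins, and Xcr1 from chr9:123862030-123862279 on the minus strand.
Irf8: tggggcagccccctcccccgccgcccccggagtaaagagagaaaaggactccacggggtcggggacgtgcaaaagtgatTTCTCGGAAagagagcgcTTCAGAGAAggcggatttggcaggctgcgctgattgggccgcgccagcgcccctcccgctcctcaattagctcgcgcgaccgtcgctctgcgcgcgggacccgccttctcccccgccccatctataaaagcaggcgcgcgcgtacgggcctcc
Ccl22: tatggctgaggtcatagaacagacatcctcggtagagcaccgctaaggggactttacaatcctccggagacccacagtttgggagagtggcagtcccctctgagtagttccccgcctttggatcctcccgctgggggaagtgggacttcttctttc
Xcr1: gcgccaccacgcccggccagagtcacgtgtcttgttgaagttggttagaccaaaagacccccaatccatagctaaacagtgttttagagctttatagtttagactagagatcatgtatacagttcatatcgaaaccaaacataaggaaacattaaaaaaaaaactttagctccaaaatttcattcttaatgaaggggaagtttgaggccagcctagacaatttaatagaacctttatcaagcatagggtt
The Irf8 stretch held 2 GAS letter matches, TTCTCGGAA beginning at position -171 and TTCAGAGAA beginning at position -153, counted from the start site. Such a match was present in 8.30% of all 32851 windows. The Batf3 window held 1 GAS match and the Zbtb46 window held 1 match to the AP-1 letters TGANTCA, which 7.81% of windows contained. None of the 8 genes' windows held the ISRE (GAAA, a pair of any bases, GAAA, in 3.44% of windows), the ets-IRF composite (GGAA, a pair of any bases, GAAA, in 2.72%) or the kappa B element (GGGA, a pair of any bases, TTCC, in 1.47%).

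Per transcript length, Irf8 was the most abundant member, with a median of 22.8 TPM (transcript level scaled for gene length and library) over the 18 tumors and a range from 2.87 to 88.8. The median was 3.03 TPM for Ccr7, 2.15 for Batf3, 1.98 for Zbtb46 and 1.49 for Ccl22. It was below 1 TPM for Wdfy4 (0.744), Clec9a (0.305), Itgae (0.251), Xcr1 (0.201) and Flt3 (0.141). The least abundant genes rested on few reads, from 5 to 50 estimated counts per tumor for Xcr1, 1 to 50 for Clec9a, 2 to 67 for Flt3 and 1 to 62 for Itgae, so differences in these genes were measured far less precisely than those in Irf8 or Ccr7. The levels below are normalized counts, scaled to a common library size, and may be compared between tumors but not between genes.

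Library totals ran from 21608895 to 65983630 estimated counts. The 2 tumors of a group differed more than 2-fold at 5.29% to 13.8% of genes, except the CDN2 20 µg pair after 2 doses, which differed at 28.0% and included the library of lowest total. The 7 melanocyte markers summed to 20462 to 23954 CPM (counts scaled to library size) in the PBS tumors, and Ptprc, the leukocyte gene CD45, lay between 5.19 and 21.8 CPM there. After 2 doses the melanocyte sum was lower, at 15205 and 16330 CPM with exoCDN2 and 6995 and 12733 CPM with CDN2 at 20 µg. RNA of other cells is then a larger share of the library, and its part in the 2-dose differences was not tested. A sum of 10 interferon-induced genes was 123 and 147 CPM in the PBS tumors after 2 doses and 748 and 753 CPM after 1 dose, so the controls of the 2 dose numbers differed. The 5 keratinocyte markers summed to 66.8 and 124 CPM in the PBS tumors after 1 dose and to 0.330 and 0.714 CPM after 2. They summed to between 0.529 and 10.3 CPM in the tumors given 1 dose of agonist, and to 55.6 and 1.58 CPM with unloaded EVs. After 2 doses of exoCDN2 they summed to 83.0 and 1.33 CPM, so the pairs compared differed in skin RNA. Dose number and time of collection cannot be told apart.

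Ccr7 (chr11:99144196-99155077, minus strand) rose after 1 dose of exoCDN2 and did not stay high after the second dose. Its normalized counts were 46.7 and 84.4 with PBS, 440.0 and 465 with exoCDN2, 137 and 271 with CDN2 at 20 µg, 107 and 188 with CDN2 at 100 µg and 102 and 169.7 with unloaded EVs. Both exoCDN2 tumors therefore lay above all other tumors of the 1-dose set, and none of the 4 other groups overlapped PBS. After 2 doses they were 43.8 and 41.3 with PBS, 36.2 and 38.7 with exoCDN2, 136 and 80.6 with CDN2 at 20 µg, and 26.3 and 31.6 in the pair without a stated amount. Here the CDN2 20 µg tumors were the high ones, and the exoCDN2 tumors sat just under PBS.

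Ccl22 (chr8:94745590-94751699, plus strand) was high with both kinds of vesicle after 1 dose. The normalized counts were 58.6 and 72.8 with PBS, 239 and 275 with exoCDN2, 193 and 279.7 with unloaded EVs, 53.9 and 55.1 with CDN2 at 20 µg and 45.4 and 83.5 with CDN2 at 100 µg. The exoCDN2 and unloaded EV tumors overlapped each other and stood clear of PBS, whereas the CDN2 20 µg tumors lay slightly under PBS. After 2 doses the counts were 46.4 and 64.3 with PBS, 24.1 and 24.6 with exoCDN2, 76.5 and 52.6 with CDN2 at 20 µg and 35.4 and 28.2 in the pair without an amount, so that exoCDN2 gave the lowest counts of Ccl22 in the series.

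**Figure D1:**
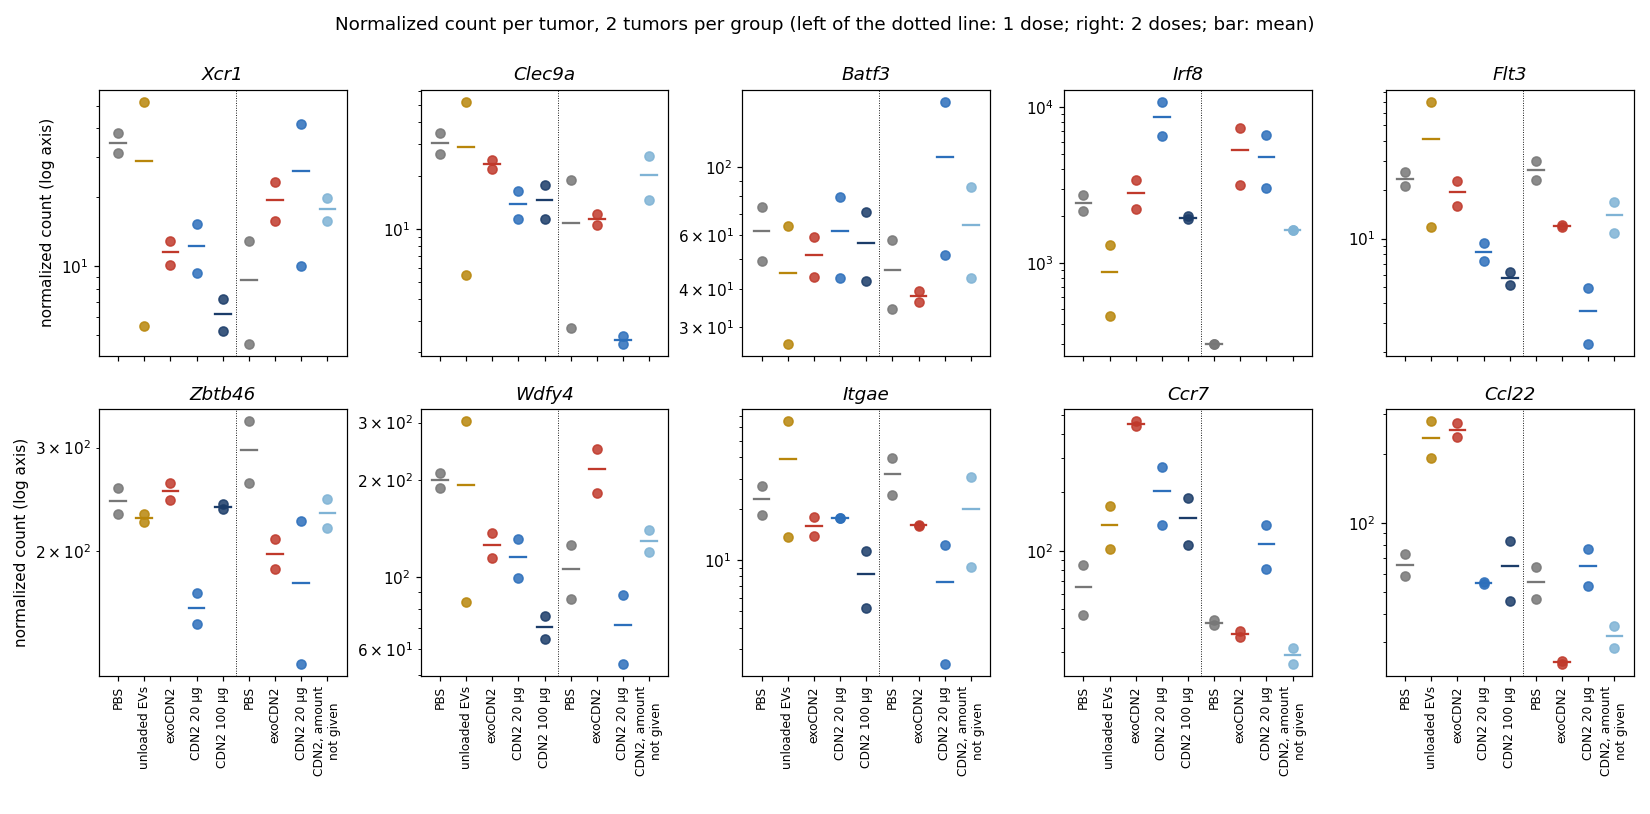
Normalized counts (log axis) of the 10 genes in each of 18 tumors, by group, with 1-dose groups left and 2-dose groups right of the dotted line; points are tumors and bars are means of 2. Ccr7 reached 440.0 and 465 after 1 dose of exoCDN2 and 36.2 and 38.7 after 2 doses.

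Against PBS after 1 dose, both migration genes were higher with exoCDN2 and none of the 8 identity genes passed the test. A gene was called when its adjusted p was below 0.05 and its ratio above 2, by the quasi-likelihood test of edgeR, adjusted by the Benjamini-Hochberg method over 16927 genes, a rule that called 2.62% of all genes in this comparison (2.20% higher, 0.425% lower). Ccr7 was higher by 2.75 ± 0.43 (log2 fold change ± SE, n = 2 tumors per group, adjusted p = 0.0038 in edgeR) and Ccl22 by 1.93 ± 0.33 (adjusted p = 0.0063 in edgeR). The identity genes lay between -1.62 ± 0.86 for Xcr1 and 0.17 ± 0.50 for Irf8. In whole tumors a change in the number of cells cannot be told apart from a change in RNA per cell. The call rests on 2 tumors a side: without PBS tumor 1 both calls were lost (Ccr7 2.38, edgeR adjusted p = 0.078; Ccl22 1.78, edgeR adjusted p = 0.12), and without PBS tumor 2 that of Ccl22 was lost (2.10, edgeR adjusted p = 0.067).

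Unloaded EVs against PBS gave 0 called members and 0 called genes overall in edgeR (0% of 16927), with 540 genes at an unadjusted p below 0.05. The smallest adjusted p of any gene was that of Ccl22 itself, which was higher by 1.83 ± 0.33 (edgeR adjusted p = 0.38). DESeq2 called it (adjusted p = 9.4e-04) among 35 genes. Ccr7 differed by 1.04 ± 0.42 (edgeR adjusted p = 1). The 2 unloaded EV tumors were far apart in the scarce identity genes, with normalized counts of 5.48 and 52.4 for both Xcr1 and Clec9a.

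A direct comparison of exoCDN2 with unloaded EVs after 1 dose, added after these counts had been seen, separated the migration genes. Ccr7 was higher with exoCDN2 by 1.71 ± 0.41 (edgeR adjusted p = 0.044, with 2.95% of genes called, 2.52% higher), and Ccl22 differed by 0.10 ± 0.31 (edgeR adjusted p = 0.94). The Ccr7 call was lost without any 1 of the 4 tumors, its values then running from 1.38 (without unloaded EV tumor 1) to 2.13 (without unloaded EV tumor 2), with edgeR adjusted p from 0.098 to 0.25.

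With free CDN2 at 20 µg after 1 dose no member was called against PBS (3.14% of genes were, 2.26% higher and 0.886% lower). Ccr7 was higher by 1.62 ± 0.42 with an edgeR adjusted p of 0.056, and Irf8 by 1.83 ± 0.52 with an edgeR adjusted p of 0.080. DESeq2 called both (adjusted p = 0.0062 and 0.0056), and without CDN2 20 µg tumor 1 edgeR called Ccr7 at 2.04. With CDN2 at 100 µg no member was called either (2.44% of genes were, 1.82% higher and 0.620% lower), and Ccr7 differed by 1.15 ± 0.42 (edgeR adjusted p = 0.20). Between exoCDN2 and CDN2 at 20 µg, at 0.1 and 20 µg of agonist, Ccl22 was higher with exoCDN2 by 2.21 ± 0.34 (edgeR adjusted p = 0.038, with 0.608% of genes called, 0.201% higher) and Ccr7 differed by 1.13 ± 0.41 (edgeR adjusted p = 0.16). That Ccl22 difference kept its size but not its call when any of the 4 tumors was left out (2.11 to 2.30, edgeR adjusted p from 0.10 to 0.34), or with the tumor number as a block (2.20, edgeR adjusted p = 0.058).

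After 2 doses the order of the migration genes turned. Against PBS, exoCDN2 had 2 members called (11.3% of genes were, 8.87% higher and 2.48% lower): Ccl22 fell by 1.16 ± 0.34 (log2, edgeR adjusted p = 0.037) and Irf8 rose, while Ccr7 differed by -0.16 ± 0.44. With CDN2 at 20 µg 3 of the 10 members were called, no larger a share than the 30.6% of all genes (20.0% higher, 10.6% lower). Ccr7 rose by 1.28 ± 0.44 (edgeR adjusted p = 0.030), Irf8 rose and Flt3 fell, and Ccl22 differed by 0.17 ± 0.34. The Ccl22 call with exoCDN2 was lost without either exoCDN2 tumor (-1.15 and -1.17), without PBS tumor 2 (-0.90) or with these 4 tumors fitted alone (-1.13, edgeR adjusted p = 0.11). The Ccr7 call with CDN2 was lost without CDN2 tumor 1 (0.90, edgeR adjusted p = 0.17) and without PBS tumor 1 or 2 (1.30 and 1.22), and also with the 4 tumors fitted alone (1.27, edgeR adjusted p = 0.14) or with all PBS tumors pooled (0.94, edgeR adjusted p = 0.056).

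Set directly against each other after 2 doses, exoCDN2 and CDN2 at 20 µg differed in 3 members, and 19.4% of all genes were called (7.34% higher, 12.0% lower). Ccr7 was lower with exoCDN2 by 1.45 on the log2 scale (-1.45 ± 0.44, edgeR adjusted p = 0.025), Ccl22 was lower (-1.32 ± 0.35, edgeR adjusted p = 0.015), and Wdfy4, a BEACH-domain protein needed for cross-presentation by type 1 dendritic cells, was higher (1.61 ± 0.50, edgeR adjusted p = 0.026). Fitted to these 4 tumors alone, none of the 3 was called (edgeR adjusted p from 0.14 to 0.16, with 30 genes called in all), and all 3 calls were also lost without CDN2 tumor 1 or without either exoCDN2 tumor. Without CDN2 tumor 1 the differences were -1.08 for Ccr7, -1.09 for Ccl22 and 1.30 for Wdfy4.

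The drop in the migration genes between dose 1 and dose 2 of exoCDN2 kept its call under every alternative tried. Ccr7 fell by 3.54 ± 0.45 (log2, edgeR adjusted p = 0.0016) and Ccl22 by 3.34 ± 0.35 (edgeR adjusted p = 0.0016), where 7.44% of genes were called (5.10% higher, 2.34% lower). The 11 alternatives, tumors left out included, placed Ccr7 between -3.59 and -3.50 and Ccl22 between -3.44 and -3.25. PBS tumors of the 2 dose numbers did not separate in this way (Ccr7 -0.63 ± 0.43 and Ccl22 -0.26 ± 0.33, neither called). With the PBS difference taken off, the drop was -2.91 ± 0.61 for Ccr7 (edgeR adjusted p = 0.014) and -3.09 ± 0.48 for Ccl22 (edgeR adjusted p = 0.0028), in a comparison that called 6.82% of genes (5.12% higher, 1.70% lower). The Ccr7 term lost its call without PBS tumor 1 of the 1-dose set (-2.55, edgeR adjusted p = 0.063) or exoCDN2 tumor 1 of the 2-dose set (-2.87, edgeR adjusted p = 0.067). For free CDN2 at 20 µg the second dose against the first left both uncalled (Ccr7 -0.97 ± 0.42, Ccl22 0.19 ± 0.35), where 20.8% of genes were called (14.4% higher, 6.36% lower).

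**Figure D2:**
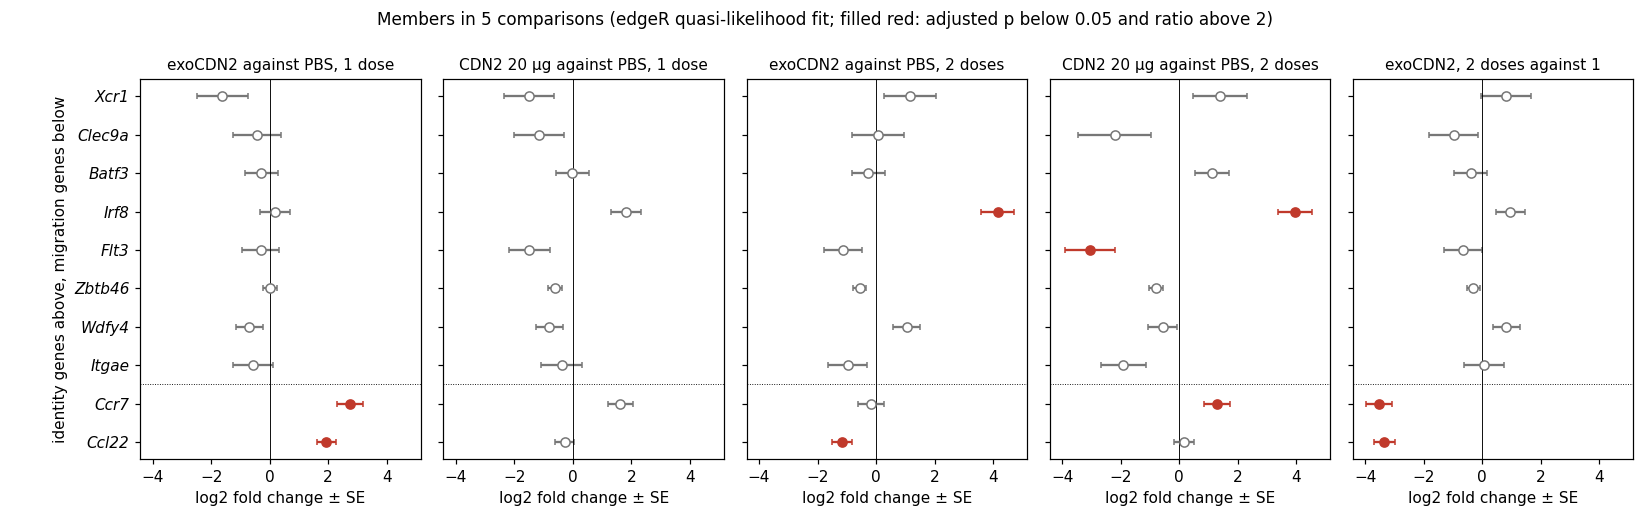
Log2 fold changes ± SE of the 10 genes in 5 comparisons, with identity genes above and migration genes below the dotted line and called genes in filled red. After 1 dose of exoCDN2 only the 2 migration genes were called against PBS (2.75 for Ccr7 and 1.93 for Ccl22).

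Among the regulators of the subset, Irf8 (chr8:120736358-120756694, plus strand) moved most. Its normalized counts after 1 dose were 2149 and 2713 with PBS, 2231 and 3401 with exoCDN2, 6521 and 10869.7 with CDN2 at 20 µg, 1907 and 1988 with CDN2 at 100 µg, and 454 and 1295 with unloaded EVs. After 2 doses they were 300.6 and 300.3 with PBS, 7406 and 3168 with exoCDN2, 6615 and 3002 with CDN2 at 20 µg and 1616 and 1622 in the pair without an amount. The PBS tumors after 2 doses were the lowest of the series, and each 2-dose group given the agonist lay clear above them.

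Irf8 rose against PBS after 2 doses by 4.16 ± 0.58 with exoCDN2 (edgeR adjusted p = 0.00051), by 3.95 ± 0.57 with CDN2 at 20 µg (edgeR adjusted p = 0.00027) and by 2.42 ± 0.51 in the pair without an amount (edgeR adjusted p = 0.037, with 0.959% of 17110 genes called, 0.918% higher and 0.0409% lower). These 3 comparisons share their PBS tumors. Irf8 was also 1 of the genes lower in PBS tumors after 2 doses than after 1 (-3.02 ± 0.55, edgeR adjusted p = 0.018, with 1.10% of genes called, 1.05% lower), and with the PBS tumors of both dose numbers pooled the differences shrank to 1.97 for exoCDN2 (edgeR adjusted p = 0.10) and 1.76 for CDN2 at 20 µg (edgeR adjusted p = 0.069). The PBS call itself was lost without PBS tumor 2 of the 1-dose set (-2.84) or either PBS tumor of the 2-dose set (-3.02 each). In the pair without an amount the call was lost without its tumor 2 (2.41) or either PBS tumor (2.42 each) and, with the tumor number as a block, at an edgeR adjusted p of 0.053.

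Within the exoCDN2 tumors, Irf8 differed between the second and first dose by 0.96 ± 0.51 (edgeR adjusted p = 0.25), and with the PBS difference taken off by 3.98 ± 0.74 (edgeR adjusted p = 0.0074). For CDN2 at 20 µg the same term was 2.13 ± 0.73 (edgeR adjusted p = 0.055), and no member was called where 16.8% of genes were. It was called in DESeq2 (adjusted p = 0.012) and without CDN2 tumor 2 of the 2-dose set, where it was 2.50 and Xcr1, at 3.62, was called as well. After 2 doses macrophage and monocyte markers and interferon-induced genes were higher along with Irf8. Of 12 macrophage and monocyte markers 7 were higher with exoCDN2 and 10 with CDN2 at 20 µg after 2 doses, where 8.87% and 20.0% of all genes were. Their sum rose from 179 and 193 CPM with PBS to 615 and 960 CPM with exoCDN2 and 733 and 1388 CPM with CDN2. All 10 interferon-induced genes were higher in both, with sums of 2876 to 4092 CPM and 6130 to 6457 CPM. After 1 dose these sets did not all follow Irf8. The interferon-induced sum was 10122 and 10460 CPM with exoCDN2 and 9530 and 9950 CPM with CDN2 at 100 µg, where Irf8 overlapped or lay under PBS. It was 748 and 753 CPM with PBS. With CDN2 at 20 µg it was 9536 and 13643 CPM, and both Irf8 counts lay above PBS. The macrophage and monocyte sum was 242 and 247 CPM with exoCDN2 and 341 and 441 CPM with PBS. The part of these sets in the Irf8 result was not tested.

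Batf3 (chr1:191097847-191108945, plus strand), the partner of IRF8 in this lineage, and Zbtb46 (chr2:181387762-181459426, minus strand), a factor of all conventional dendritic cells, gave no call in edgeR with all tumors. Batf3 ranged from 26.5 to 163 normalized counts with a median of 50.5, its highest value coming from CDN2 20 µg tumor 1 after 2 doses. DESeq2 called it lower with exoCDN2 than with CDN2 at 20 µg after 2 doses (-1.48, adjusted p = 0.042), and without CDN2 20 µg tumor 2 edgeR called it there (-1.98) and against PBS (1.70). Zbtb46 had the narrowest range of the 10, from 129 to 332 normalized counts, or 2.58-fold. After 2 doses of CDN2 at 20 µg it was lower than with PBS by 0.81 on the log2 scale (-0.81 ± 0.24, edgeR adjusted p = 0.016), a difference under the 2-fold limit, and it was called without CDN2 tumor 1 (-1.22). The 7 endothelial markers, a second source of Zbtb46, had 1 lower and 0 higher in that comparison, where 10.6% of all genes were lower and 20.0% higher.

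The surface markers of the subset gave no call after 1 dose. Xcr1 (chr9:123852315-123862029, minus strand) had normalized counts of 31.1 and 38.1 with PBS, 10.2 and 12.9 with exoCDN2, 9.32 and 15.3 with CDN2 at 20 µg, 7.22 and 5.22 with CDN2 at 100 µg and 5.48 and 52.4 with unloaded EVs. All 6 tumors given the agonist lay under both PBS tumors, yet the differences of -1.62 ± 0.86 with exoCDN2, -1.50 ± 0.87 with CDN2 at 20 µg and -2.47 ± 0.93 with CDN2 at 100 µg had edgeR adjusted p of 0.40, 0.44 and 0.21. The first and the last became calls when only the groups compared entered the fit (exoCDN2, -1.60, edgeR adjusted p = 0.013, and CDN2 at 100 µg, -2.46, edgeR adjusted p = 0.0032). These PBS tumors held more keratinocyte RNA (66.8 and 124 CPM) than the agonist tumors (0.529 to 10.3 CPM). With unloaded EVs the sum was 55.6 CPM where Xcr1 was 5.48, and 1.58 CPM where Xcr1 was 52.4. The part of skin in the Xcr1, Clec9a and Wdfy4 counts was not tested. After 2 doses the counts were 12.9 and 4.59 with PBS, 23.3 and 15.8 with exoCDN2, 42.0 and 10.1 with CDN2 at 20 µg, and 19.9 and 15.8 without an amount, so that exoCDN2 tumors lay above PBS (1.16 ± 0.88, edgeR adjusted p = 0.41).

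Clec9a (chr6:129408862-129424763, plus strand) counted 26.5 and 34.8 with PBS, 24.5 and 21.8 with exoCDN2, 11.4 and 16.4 with CDN2 at 20 µg, 11.3 and 17.7 with CDN2 at 100 µg and 5.48 and 52.4 with unloaded EVs after 1 dose. The 4 free agonist tumors lay under PBS, with differences of -1.15 ± 0.86 and -1.08 ± 0.85 that were not called, and the lowest and the highest tumor were both given unloaded EVs. After 2 doses the counts were 18.9 and 2.76 with PBS, 12.1 and 10.6 with exoCDN2, and 2.47 and 2.24 with CDN2 at 20 µg. The free CDN2 pair without an amount was not low, at 14.5 and 26.0. The CDN2 20 µg values stood on 1 and 2 reads, 3 in all against 25 in the PBS pair, a ratio of 0.208 with an exact 95% counting interval from 0.0403 to 0.683. PBS tumor 1 gave 22 of the 25 reads, and without it the log2 difference was -0.28. In edgeR the difference between CDN2 at 20 µg and PBS was -2.20 ± 1.24 (adjusted p = 0.16), and with all PBS tumors pooled -3.13 (edgeR adjusted p = 0.041).

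Flt3 (chr5:147330741-147400489, minus strand), the receptor of FLT3L, was the identity gene called lower with an agonist than with PBS. The normalized counts were 21.1 and 25.7 with PBS, 22.8 and 15.8 with exoCDN2, 7.25 and 9.38 with CDN2 at 20 µg and 5.16 and 6.26 with CDN2 at 100 µg after 1 dose, the free agonist tumors being low. After 2 doses they were 30.1 and 23.0 with PBS, 12.1 and 11.7 with exoCDN2, 4.94 and 2.24 with CDN2 at 20 µg and 10.9 and 16.9 without an amount. Flt3 fell after 2 doses of CDN2 at 20 µg by 3.03 ± 0.85 (log2, edgeR adjusted p = 0.012). That pair held 4 reads against 60 with PBS, a ratio of 0.116 with a counting interval from 0.0305 to 0.312, which covers counting error only. The call was lost without CDN2 tumor 2 (-2.51, edgeR adjusted p = 0.083). With exoCDN2 Flt3 differed by -1.13 ± 0.64 (edgeR adjusted p = 0.26), and the direct difference between the agents was 1.90 ± 0.89 (edgeR adjusted p = 0.11).

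Wdfy4 (chr14:32959547-33185508, minus strand) counts were 189 and 210.2 with PBS, 137 and 115 with exoCDN2, 99.5 and 131 with CDN2 at 20 µg, 76.3 and 64.7 with CDN2 at 100 µg and 84.0 and 303 with unloaded EVs after 1 dose. All agonist tumors lay under PBS, as did 1 of the 2 unloaded EV tumors. After 2 doses they were 85.9 and 126 with PBS and 249 and 182 with exoCDN2. With free CDN2 they were 54.3 and 88.4 at 20 µg and 140 and 120 in the pair without an amount. The exoCDN2 tumors lay above PBS (1.04 ± 0.47, edgeR adjusted p = 0.16) and clear of both free CDN2 pairs. Itgae (chr11:73090583-73147446, plus strand), the CD103 integrin chain of migratory type 1 cells and of resident T cells, ranged from 2.47 to 65.0 normalized counts and was not called in edgeR. It was lower with CDN2 at 20 µg than with PBS after 2 doses by 1.91 on the log2 scale (-1.91 ± 0.77, edgeR adjusted p = 0.056), and was called without CDN2 tumor 2 (-3.73) and, narrowly, in DESeq2 (-1.94, adjusted p = 0.0499).

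The contrast between the sets was summarised as the mean log2(normalized count + 1) of Ccr7 and Ccl22 less that of the 8 identity genes. After 1 dose it was -0.48 ± 0.17 with PBS (SD, n = 2), 2.33 ± 0.18 with exoCDN2, 1.40 ± 0.90 with unloaded EVs, 0.68 ± 0.07 with CDN2 at 20 µg and 1.14 ± 0.59 with CDN2 at 100 µg. After 2 doses it was 0.04 ± 0.41 with PBS, -1.11 ± 0.25 with exoCDN2, 0.95 ± 0.11 with CDN2 at 20 µg and -1.05 ± 0.02 without an amount. The exoCDN2 tumors thus gave the highest group mean after 1 dose and the lowest after 2. After 2 doses they (-1.29 and -0.93) overlapped the free CDN2 pair without an amount (-1.04 and -1.07). The pooled SD between tumors of a group was 0.41, which the difference between the exoCDN2 pairs exceeded. The mean of the identity genes was nearly equal in both pairs (6.09 ± 0.08 and 6.08 ± 0.21), an average over genes that differed in opposite directions, such as Irf8 (0.96 ± 0.51) and Clec9a (-0.98 ± 0.85), neither of them called. The mean of the migration genes went from 8.42 ± 0.10 to 4.97 ± 0.04. An exact permutation test over a pair of groups of 2 tumors allows no two-sided p under 0.333, so none is given for this score.

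**Figure D3:**
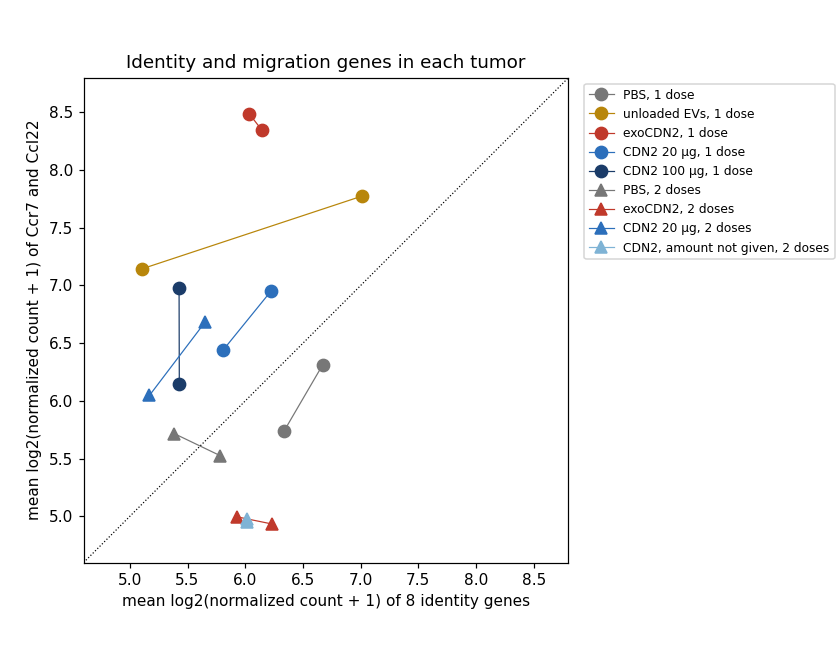
Mean log2(normalized count + 1) of Ccr7 and Ccl22 against that of the 8 identity genes, 1 point per tumor, with lines joining the 2 tumors of a group and a dotted line of equality. The exoCDN2 pair sits at 8.42 on the migration axis after 1 dose and at 4.97 after 2 doses, near 6.1 on the identity axis both times.

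The members were also set against Ptprc, which itself rose after 2 doses of exoCDN2. Ptprc had normalized counts of 4606 and 3177 there against 495 and 217 with PBS, and rose by 3.47 (log2, edgeR). Any gene that rose less than Ptprc has a lower ratio, and the median log2 fold change over all genes was 0.01. A lower mean ratio than with PBS in 9 of the 10 members, all but Irf8, therefore says little about these genes. The log2 ratio of Ccr7 to Ptprc was -1.80 ± 0.36 (SD, n = 2) after 1 dose and -6.64 ± 0.45 after 2 doses of exoCDN2, beside -3.57 ± 0.24 and -2.92 ± 0.78 with PBS. For Ccl22 the ratios were -2.61 ± 0.45 and -7.24 ± 0.40 with exoCDN2, and -3.51 ± 0.14 and -2.56 ± 1.17 with PBS. For Xcr1 they were -6.99 ± 0.53 and -7.56 ± 0.0029 with exoCDN2, and -4.42 ± 0.16 and -5.22 ± 0.09 with PBS, so that both exoCDN2 pairs lay lower than their controls, although the Xcr1 counts themselves lay above those of PBS after 2 doses. The ratio of Irf8 to Ptprc was 0.34 ± 0.49 with exoCDN2 and -0.12 ± 0.84 with PBS after 2 doses, values that overlapped.

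Markers of the other cells that express these genes did not all move with them. After 1 dose of exoCDN2 none of 9 T cell markers was called, and they summed to 3.04 and 5.27 CPM against 10.4 and 12.3 CPM with PBS, while Ccr7 was higher. After 2 doses 8 of the 9 were higher, where 8.87% of all genes were, while Ccr7 differed by -0.16. The 9 markers then summed to 34.2 and 44.1 CPM against 1.49 and 3.04 CPM with PBS. The 8 B cell markers summed to between 1.90 and 4.92 CPM in every tumor, 4 of them had enough counts to be tested, and Fcer2a and Blk had at most 3 counts in any tumor. The Langerhans cell marker Cd207 likewise had at most 3 counts. Of 6 neutrophil markers 3 were higher after 1 dose of exoCDN2, where 2.20% of all genes were. After 2 doses of CDN2 at 20 µg all 6 were higher, where 20.0% of all genes were. They summed to 195 and 821 CPM there against 1.56 and 1.98 CPM with PBS. In that same comparison 4 of 7 melanocyte markers were lower, where 10.6% of all genes were. Their sum was 6995 and 12733 CPM against 23531 and 23954 CPM with PBS. The part of these shifts in the members' values was not tested.

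Partners of the members (ligands, receptors and adhesion partners) and 3 growth factors of myeloid and dendritic cells (Csf1, Csf2 and Kitl) were followed as a list of 11 genes, 10 of them tested. After 1 dose of exoCDN2, where 2.20% of all genes were higher, 1 was higher and 0 lower (median 1.07, all genes -0.02): Csf1, the macrophage growth factor, so that no partner was called. After 2 doses 4 were higher and 0 lower (median 1.95, all genes 0.01), where 8.87% of all genes were higher. Among these 4 were Flt3l, which encodes the FLT3 ligand (3.44, edgeR adjusted p = 0.00022), Xcl1, the ligand of XCR1 (2.60, edgeR adjusted p = 0.047), and Itgb7, the partner chain of Itgae (3.57, edgeR adjusted p = 0.0011). Flt3l counted 222 and 141 with exoCDN2 against 15.5 and 18.4 with PBS, and Xcl1 29.8 and 39.3 against 10.3 and 0.919, neither pair overlapping PBS. With CDN2 at 20 µg 6 were higher and 0 lower after 2 doses (median 2.20), where 20.0% of all genes were higher. Among these 6 were Flt3l (3.00, edgeR adjusted p = 0.00020) and Ccl19, a CCR7 ligand (3.16, edgeR adjusted p = 0.036). The CCL22 receptor gene Ccr4 stayed between 0 and 9.31 normalized counts over the 18 tumors and did not pass the filter on low counts, so it was not tested.

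Of 24 listed other genes of mature migratory dendritic cells, 10 were higher and 0 lower after 1 dose of exoCDN2 (median 2.03 against -0.02 over all genes). Of all genes 2.20% were higher and 0.425% lower there. The 10 listed genes included Birc3, an inhibitor of apoptosis (2.98, edgeR adjusted p = 0.00087), Cd274, which encodes PD-L1 (3.17, edgeR adjusted p = 0.0023), Socs2, a cytokine signal suppressor (2.15, edgeR adjusted p = 0.0027), and Apol7c (3.71, edgeR adjusted p = 0.0051). With CDN2 at 20 µg 6 were higher and 0 lower after 1 dose (median 0.90), where 2.26% of all genes were higher. With unloaded EVs none was called (median 0.47), as over all genes. After 2 doses 10 were higher with exoCDN2 (median 0.84), where 8.87% of all genes were. With CDN2 at 20 µg 15 were higher (median 2.19), where 20.0% of all genes were. Set against CDN2, exoCDN2 had 7 lower and 0 higher (median -1.02), where 12.0% of all genes were lower and 7.34% higher. Several of these genes, such as Cd274 and Il15ra, are also induced by interferon in other cells. Some were abundant with PBS after 1 dose, with 4992 and 5508 counts for Marcksl1, 1393 and 1589 for Fscn1 and 1321 and 1535 for Cd274, where Ccr7 had 51 and 102. This list may thus hold RNA of cells other than dendritic cells, whose part was not tested.

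**Figure D4:**
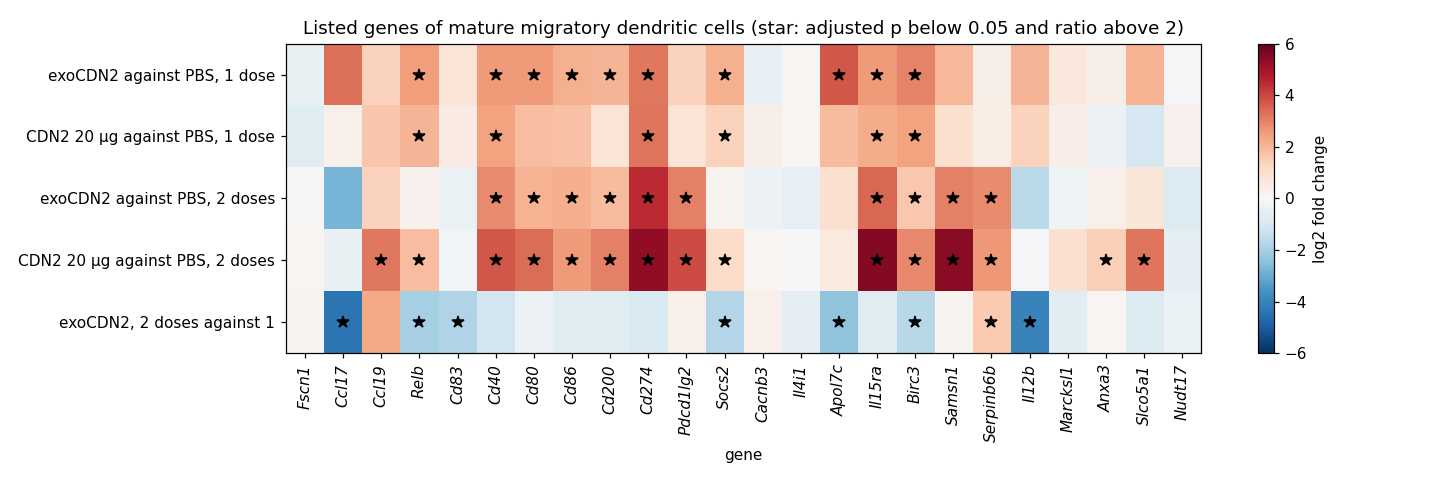
Log2 fold changes of 24 listed genes of mature migratory dendritic cells (columns) in 5 comparisons (rows), with stars on called genes. Against PBS 10 genes were called after 1 dose of exoCDN2 (2.62% of all genes were) and 10 after 2 doses (11.3% of all genes were). Ccl17, Il12b and Cd83 were among the 7 that were lower after the second dose than after the first (2.34% of all genes were).

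Between dose 1 and dose 2 of exoCDN2, 7 of the 24 fell and 1 rose (median -0.72, all genes 0.03), where 2.34% of all genes fell and 5.10% rose. With the PBS difference taken off, 2 were lower and 1 higher (median -0.33, all genes 0.02), where 1.70% of all genes were lower and 5.12% higher. Those that fell beside Ccr7 and Ccl22 included Cd83, a maturation marker (-1.80, edgeR adjusted p = 0.0041), Socs2 (-1.76, edgeR adjusted p = 0.0054), Relb, an NF-kappa B subunit needed for maturation (-2.01, edgeR adjusted p = 0.011), and Birc3 (-1.66, edgeR adjusted p = 0.012). Il12b, encoding the p40 chain of interleukin 12, had 72.8 and 76.2 normalized counts after 1 dose and 4.02 and 4.69 after 2 doses. Ccl17, the other CCR4 ligand, had 6.77 and 12.9 after 1 dose and 0.805 and 0 after 2 doses, on few reads. Fscn1, encoding the actin bundler fascin, counted 1075 and 868 after 1 dose and 1097 and 999 after 2 doses, which overlapped.

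Most of the other genes listed for the subset did not pass the test. Some of them are not limited to it in whole tumors. In the PBS tumors after 1 dose Cadm1 had 14390 and 15581 counts and Id2 3333 and 3830, where Xcr1 had 34 and 46. RNA of other cells may therefore enter this list, and its part was not tested. Of 14 tested genes on a list of 15 other type 1 genes, 1 was higher and 2 lower after 1 dose of exoCDN2 (median -0.21), where 2.20% of all genes were higher and 0.425% lower. Tlr3, the sensor of double-stranded RNA, was higher (2.70, edgeR adjusted p = 0.00076), and Rab7b (-2.22, edgeR adjusted p = 0.015) and Cxxc5 (-1.53, edgeR adjusted p = 0.038) were lower. After 2 doses 3 were higher with exoCDN2 and 5 with CDN2 at 20 µg, where 8.87% and 20.0% of all genes were, with Tlr3 and Rab7b among both. Genes for MHC class II presentation and related dendritic cell genes, a list of 12, had 0 higher and 2 lower after 1 dose of exoCDN2 (H2-DMb1 -2.86 and H2-DMa -3.06), where 0.425% of all genes were lower. They had 8 higher and 1 lower after 2 doses (median 2.45, all genes 0.01), where 8.87% of all genes were higher and 2.48% lower. With CDN2 at 20 µg they had 2 higher and 1 lower after 2 doses, near the shares over all genes (20.0% higher, 10.6% lower). Their sum was 566 and 758 CPM with PBS after 1 dose and 156 and 142 CPM after 2, and 234 and 290.1 CPM with exoCDN2 after 1 dose and 1526 and 418 CPM after 2. The exoCDN2 tumor at 1526 CPM also held 83.0 CPM of keratinocyte markers, and the tumor at 418 CPM held 1.33 CPM. The part of skin in these sums was not tested. Between the dose numbers of exoCDN2 itself 2 of the 12 genes were higher and 1 lower, where 5.10% of all genes were higher and 2.34% lower. Directly compared after 2 doses, 7 of the 12 were higher with exoCDN2 than with CDN2, where 7.34% of all genes were. Ciita, the class II transactivator (3.90, edgeR adjusted p = 0.0071), and Itgax, encoding CD11c (1.94, edgeR adjusted p = 0.032), were among them.

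Of 16 listed regulators of dendritic cell development and maturation, 3 were higher and 1 lower after 1 dose of exoCDN2 (median 0.30), where 2.20% of all genes were higher and 0.425% lower. Rel (1.52, edgeR adjusted p = 0.0019) and Relb (2.49, edgeR adjusted p = 0.0060), both NF-kappa B subunits, were higher, and Cbfa2t3, a transcriptional corepressor, was lower (-2.17, edgeR adjusted p = 0.043). After 2 doses 3 were higher with exoCDN2, where 8.87% of all genes were, and 7 with CDN2 at 20 µg, where 20.0% of all genes were, Spi1, encoding PU.1, Ikzf1 and Bcl6 being higher with both. The 7 genes that mark type 2 conventional cells, 6 of them tested, had 0 called after 1 dose of exoCDN2 and 1 higher and 2 lower after 2 doses of either agent. After 2 doses 8.87% of all genes were higher and 2.48% lower with exoCDN2, and 20.0% higher and 10.6% lower with CDN2 at 20 µg. The plasmacytoid list of 8, with 7 tested, had 1 higher after each dose number of exoCDN2, where 2.20% (1 dose) and 8.87% (2 doses) of all genes were. Both lists may also hold RNA of other cells. In the PBS tumors after 1 dose Sirpa, a type 2 gene, had 6595 and 7475 counts, and Tcf4, a plasmacytoid gene, 2389 and 2614.

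Over the 16 tumors of the main fit, the genes whose log2 profiles lay closest to those of the members were ranked by root mean square difference. Closest to Ccr7 were Cacnb2 (0.64), Cgas (0.68) and Il12b (0.70). Closest to Ccl22 were Gm11991 (0.57), Ccl17 (0.69) and Ramp3 (0.70). Closest to Xcr1 were Cd300ld3 (0.60), Naaa (0.61), itself on the list of other type 1 genes, and Ighm (0.61). The nearest profiles to Clec9a were those of Gm47483 (0.72), Gm26869 (0.72) and Cntln (0.75).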

How the data were processed

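RNA sequencing of 18 whole tumors was analysed from 1 table. Per the labels and the study's methods, the authors aligned paired reads to mm10 (GRCm38) and deposited expected counts per Ensembl gene from RSEM, of which 8.75% to 12.7% per tumor were not whole; no FPKM values were used. Here the expected counts were rounded, symbols and exon lengths were taken from GENCODE M21 by identifier, and no value column was left out. Low counts were filtered by edgeR filterByExpr with groups. A gene was kept if at least 2 tumors passed a CPM cutoff and it had 15 counts in all. That cutoff equals 10 counts at the median library size.

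Main results came from edgeR 4.0.16 (R 4.3.3; TMM, glmQLFit, glmQLFTest; Benjamini-Hochberg adjustment over all tested genes), fitted to 8 groups of 16 tumors. The pair without an amount came from an 18-tumor fit in 9 groups over 17110 genes. Called means adjusted p below 0.05 and ratio above 2. Normalized counts are divided by DESeq2 1.42.0 size factors, and TPM use exon length. Labels give separate samples per group without naming their animals, so p-values measure the spread between these samples. Statistics were tested on simulated data. Promoter letters were searched on both strands.

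All 10 members are named. From each list the called genes with the smallest p (at most 4 per comparison) are named, with a fixed set of partners (Ptprc, Xcl1, Flt3l, Itgb7, Ccr4, Ccl17, Ccl19, Fscn1, Itgax) and the 3 profiles nearest to 4 members. Il15ra, Fcer2a, Blk, Cd207 and a few further list genes were named after their values were seen. Members and lists were chosen with earlier results of these data known. Alternatives were DESeq2, RLE scaling, no filter, only the groups compared, 18 tumors, pooled PBS tumors, no ratio limit, a replicate block and leaving out each tumor.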

Additional observations from a re-analysis of the deposited data

Results flagged for a closer look

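A total of 3 members stood out because the effect of exoCDN2 against PBS differed between the first and the second dose by a test of the difference itself, the interaction term of the edgeR quasi-likelihood fit with Benjamini-Hochberg adjustment. The log2 difference of the effects was 3.98 for Irf8 (adjusted p = 0.0074), with normalized counts of 2231 and 3401 against 2149 and 2713 in PBS after 1 dose and of 7406 and 3168 against 300.6 and 300.3 after 2 doses. It was -2.91 for Ccr7 (edgeR adjusted p = 0.014) and -3.09 for Ccl22 (edgeR adjusted p = 0.0028). The Irf8 term contains the low PBS tumors of the 2-dose set, and exoCDN2 tumors of the 2 dose numbers alone differed in Irf8 by 0.96 ± 0.51. Groups of 2 tumors allow no check for outlying samples.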

How the results depend on the processing

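Over 1098 values of single members under settings other than leaving out a tumor, 1026 kept their call status and sign, 10 lost a call, 48 gained one and 14 changed sign without being called either time. Over 680 values with 1 tumor left out (a lone tumor is then assumed to vary like the other groups) these were 577, 35, 7 and 61, and no call reversed in either set. The number of members called moved as follows, and the cause was not tested. These counts stand without the share of all genes called under the same setting, so they do not show whether members moved more than other genes. Without a filter on low counts it went from 0 to 2 for CDN2 at 20 µg (1 dose), unloaded EVs, CDN2 2 doses against 1 and the CDN2 dose difference relative to PBS, from 0 to 4 for CDN2 at 100 µg, from 1 to 2 for PBS 2 doses against 1 and exoCDN2 against unloaded EVs, from 1 to 3 for exoCDN2 against CDN2 after 1 dose, and from 3 to 5 for that pair after 2 doses, CDN2 at 20 µg against PBS after 2 doses and the exoCDN2 dose difference relative to PBS. DESeq2 gave 2 for CDN2 at 20 µg (1 dose), exoCDN2 against CDN2 (1 dose) and exoCDN2 against unloaded EVs, and 1 for unloaded EVs, CDN2 at 100 µg and the CDN2 dose difference. Fitting only the groups compared gave 4 for CDN2 at 100 µg, 1 for CDN2 at 20 µg (1 dose), 2 for exoCDN2 against CDN2 after 1 dose and 0 after 2, 1 for exoCDN2 against PBS after 2 doses and 5 for the exoCDN2 dose difference. All 18 tumors gave 1 for CDN2 at 20 µg (1 dose) and its dose difference, and pooled PBS tumors gave 1 for both free CDN2 amounts after 1 dose and for exoCDN2 after 2. The tumor numbers of a pair do not mark shared animals, and with the replicate block 1 member was called for CDN2 at 20 µg (1 dose), 0 for exoCDN2 against CDN2 after 1 dose and 0 for the pair without an amount, with no other count changed. Leaving out 1 tumor gave 0 to 2 for exoCDN2 against PBS after 1 dose and 1 to 2 after 2 doses, 0 to 1 for CDN2 at 20 µg (1 dose), PBS 2 doses against 1 and the pair without an amount, 0 for exoCDN2 against CDN2 after 1 dose and against unloaded EVs, 0 to 4 for exoCDN2 against CDN2 after 2 doses and 0 to 2 for the CDN2 dose difference. The score difference from PBS for CDN2 at 20 µg (1 dose) was 1.16, and 1.57 without Irf8 and Itgae. With a tumor left out it ran from 1.20 to 2.03 for CDN2 at 100 µg and from 1.24 to 2.52 for unloaded EVs. Over all genes the calls depended on the settings as well: after 1 dose exoCDN2 against PBS called 444 genes, 711 in DESeq2, 1166 without the filter, 1300 with only its groups and 685 with pooled PBS, CDN2 at 20 µg 532, 1076 without the filter and 930 with pooled PBS, CDN2 at 100 µg 413, 666 in DESeq2, 1178 without the filter and 1352 with only its groups, and unloaded EVs 0, 35 in DESeq2 and 227 without the filter. exoCDN2 against CDN2 called 103 after 1 dose, 384 in DESeq2, 707 without the filter, 354 with only its groups, 65 with RLE factors, 41 with 18 tumors and 0 with the block, and 3279 after 2 doses, 30 with only its groups. PBS 2 doses against 1 called 186, 390 in DESeq2, 766 without the filter and 285 with only its groups. CDN2 at 20 µg after 2 doses called 5177 against PBS and 3060 with only its groups, and 3521 against 1 dose and 629 with only its groups. The dose difference relative to PBS called 1154 for exoCDN2 and 2045 without the filter, and 2848 for CDN2 and 1179 with only its groups. The pair without an amount called 164, 359 in DESeq2, 713 without the filter and 276 with only its groups, and exoCDN2 against unloaded EVs, a comparison chosen after seeing the data, 499 and 1101 without the filter. Dropping the ratio limit raised the counts to at most 8515. Xcr1, Clec9a, Flt3 and Itgae are limited by depth.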
